A study of Homo sapiens with 12 samples.

Results

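HEK293T cells with a hairpin against HuR were compared with cells carrying a control hairpin, both after 18 h in medium with 25 µM of an alkyne form of 4-hydroxynonenal (HNE). The comparison rests on 4 libraries, shHuR with HNE (2 libraries) and shControl with HNE (2 libraries), out of 12 in the series. The other 8 came from the same lines untreated or given 225 µM H2O2, and entered the fit to estimate the spread. They serve otherwise only to show the range of a share of counts and in a closing test of whether the line difference depended on the treatment. HEK293T is a human embryonic kidney line that carries the SV40 large T antigen. Each line was made by lentiviral transduction with 1 pLKO hairpin construct and selected in puromycin, so hairpin and line cannot be told apart. Whether a line was 1 clone or a mixed population is not given in the labels. Both lines received HNE, so the values below describe how the lines differed in its presence, not what HNE changed. The series design gives the replicates as biological.

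HuR, the product of ELAVL1, binds U-rich and AU-rich stretches of RNA, is mostly nuclear, and moves to the cytoplasm under many stresses, where it can stabilise its target mRNAs or alter their translation. HNE is a reactive aldehyde formed when membrane lipids are oxidised. It adds to cysteine, histidine and lysine side chains, and among its known cellular effects are release of the transcription factor NRF2 from KEAP1 and induction of heat-shock proteins through HSF1. The series asks what HuR contributes to the transcriptome of cells under such electrophile or oxidant stress.

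The hairpin and its site are shown because every comparison here depends on them. The guide strand is written with its seed, bases 2 to 8, in capitals.
shHuR target: cccatcacagtgaagtttgca
shHuR guide strand: tGCAAACTtcactgtgatggg
The target matched transcripts of ELAVL1 alone among 206694 GENCODE transcripts. It lies at chr19:7967669-7967689 (GRCh38, minus strand), in the coding part of exon 5 of 6 of ELAVL1. The mRNA of ELAVL1 stood at 92.7 and 97.9 CPM in shControl and 69.3 and 73.1 CPM in shHuR, where CPM scales counts to the library's TMM-adjusted size. Both shHuR libraries were below both shControl libraries. Its log2 fold change between the lines was -0.42 (SE 0.0708, adjusted p = 0.00334, edgeR's quasi-likelihood test with Benjamini-Hochberg adjustment), so most of the ELAVL1 mRNA was still present in the shHuR line with HNE. The adjusted p was 0.0631 without shHuR replicate 1 and 0.0551 with the 4 HNE libraries alone, with log2 fold changes of -0.38 and -0.42.

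The 4 libraries held 25358173 to 29907258 counts. After a filter on low counts 16005 genes were tested. The 2 shHuR libraries were close to each other, and the 2 shControl libraries were not. Of 11243 genes with a mean of at least 5 CPM, 350 (3.11%) differed by 1.5-fold or more between the shControl replicates and 14 (0.125%) between the shHuR replicates. Short noncoding RNAs made up 74 of those 350 genes, and 72 of the 74 were higher in shControl replicate 2. Across genes, which are not independent replicates, log2 CPM correlated at 0.984 within shControl, 0.992 within shHuR and 0.982 to 0.983 between lines. A chi-square of the counts per degree of freedom, larger for libraries further apart, was 21.48 within shControl and 2.934 within shHuR. Against the shHuR libraries it was 18 and 19.18 for shControl replicate 1, less than within shControl. For shControl replicate 2 it was 26.14 and 29.45. Of 10 marker genes listed for HEK293 cells, 9 had at least 10 counts in all 4 libraries, the exception being PAX2, and their summed FPKM ran from 338.5 to 401.2. Summed FPKM of 5 markers each for white blood cells, hepatocytes, fibroblasts, squamous cells and endothelial cells stayed between 0.0406 and 1.41. In bulk RNA, a change in the share of cells and a change in RNA per cell cannot be told apart.

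With HNE present, 1324 genes differed between the lines at an adjusted p under 0.05, which is 8.27% of those tested. Of these, 518 (3.24%) were higher in shHuR and 806 (5.04%) were lower. Most differences were modest. The median size among called genes was 0.45 on the log2 scale, and 159 reached 2-fold, 40 of them higher and 119 lower in shHuR. The median over all tested genes was -0.01. The 2 lines did not overlap for any called gene, against 51.7% of all tested genes. Calls depended on level, from 1.15% of genes under 1 CPM to 12.3% of those at 100 CPM or more.

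The calls also depended on the libraries used. Leaving out a shHuR library, which leaves that arm with 1 library assumed to vary like the other groups, gave 268 calls without replicate 1 and 164 without replicate 2. Without shControl replicate 1 there were 1890 calls and without shControl replicate 2 there were 1331, which shared 989 and 813 genes with the 1324. The 4 HNE libraries fitted alone gave 204 calls, of which 200 were among the 1324. A core of 115 genes was called under each of 24 alternative settings, 45 of them higher in shHuR, by 0.46 to 1.54, and 70 lower, at -1.66 to -0.45 on the log2 scale. Genes of this core are pointed out below. For each gene list below, the share of tested members called is given and is to be read against the 8.27% of all tested genes, and counts of calls without a library come from the same fits.

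**Figure D1:**
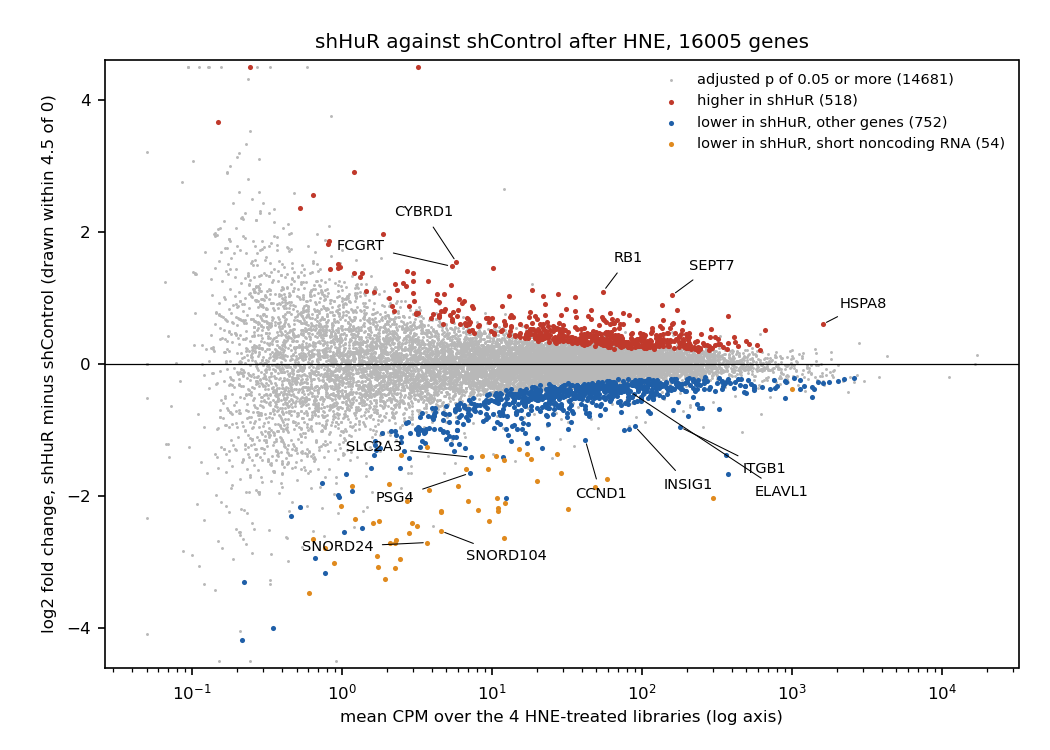
Log2 fold change of shHuR against shControl with HNE (vertical axis, drawn within 4.5 of 0) against the mean CPM of the 4 libraries (horizontal log axis), 1 point per tested gene, with called genes coloured. The 518 higher and 806 lower genes lie mostly within 1 log2 unit of 0, and the 54 called short noncoding RNAs are all on the lower side.

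The largest rises and falls below were ranked among called mRNAs and long noncoding RNAs that reached 5 CPM in the higher line and had whole counts. Called genes outside this rule were not ranked. The largest rise in shHuR was in CYBRD1, a ferric reductase of the plasma membrane (chr2:171522247-171558133, plus strand, GRCh38). Its level was 2.63 and 3.35 CPM in shControl and 8.26 and 9.04 CPM in shHuR (log2 fold change 1.54, SE 0.232, adjusted p = 0.00172). FCGRT, which encodes the neonatal Fc receptor that recycles IgG and albumin, went from 2.4 and 3.35 CPM to 8.77 and 7.15 CPM (log2 fold change 1.48, SE 0.213, adjusted p = 0.00131). ANXA1, a calcium-dependent phospholipid-binding protein, stood at 1.8 and 2.7 CPM in shControl and 6.17 and 4.45 CPM in shHuR (log2 fold change 1.25, SE 0.281, adjusted p = 0.016). In all 3 genes both shHuR libraries were above both shControl libraries, with gaps wider than either pair's own distance.

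Further genes among the 12 largest rises differed in their known roles. RASL10B, a small GTPase, rose by 1.19 on the log2 scale (adjusted p = 0.00483). PTRF, now called CAVIN1, is a coat protein of caveolae and went from 10.5 and 13 CPM to 25 and 26 CPM (log2 fold change 1.12). RTN1, a reticulon of the endoplasmic reticulum membrane, went from 3.13 and 3.11 CPM to 6.41 and 6.6 CPM (log2 fold change 1.06). The pairs were narrow and apart in PTRF and RTN1. CD109, a protease-binding protein on the cell surface, rose by 1.02, ITPK1, an inositol phosphate kinase, by 1.02, and LAPTM4A, a lysosomal membrane protein, by 1.00 (from 26.2 and 21.3 CPM to 49.2 and 46.5 CPM). Of the 12 genes, 9 were in the core called under each alternative. ANXA1, RASL10B and RTN1 were not, and 9 of the 12 were called without shHuR replicate 2.

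RB1, SEPT7 and FZD6, like LAPTM4A, were among both the 12 largest rises and the 12 smallest p-values. RB1, the retinoblastoma protein that restrains E2F factors (chr13:48303726-48599436, plus strand), was at 39.2 and 31.4 CPM in shControl and 77.4 and 73.6 CPM in shHuR (log2 fold change 1.09, SE 0.112, adjusted p = 0.00017). SEPT7, a core subunit of septin filaments (chr7:35800932-35907105, plus strand), went from 109.6 and 99.5 CPM to 219 and 210 CPM (log2 fold change 1.04, SE 0.087, adjusted p = 3.87e-05). FZD6, a Wnt receptor, went from 18.6 and 17.2 CPM to 37.5 and 36.8 CPM (log2 fold change 1.05, SE 0.0889, adjusted p = 3.87e-05). In each of the 3 both shHuR libraries were far above both shControl libraries, by more than the distance within either pair. SEPT7 was the one member called among 12 septins tested (8.33%, near the share of all tested genes), whose median was -0.05. Without shControl replicate 1, 3 rose and 1 fell among the septins.

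In the same ranking, the largest fall was in LINC00324, a long intergenic RNA, at 11.6 and 28.2 CPM in shControl and 4.52 and 5.14 CPM in shHuR (log2 fold change -2.04, SE 0.399, adjusted p = 0.00793). LOC644961 was at 328 and 727 CPM in shControl and 192 and 213 CPM in shHuR (log2 fold change -1.38, adjusted p = 0.0413). In both genes the 2 shControl libraries were more than 2-fold apart, with replicate 2 the higher, as for the short RNAs. Without shControl replicate 2 the log2 fold changes were -1.27 and -0.70, and without shControl replicate 1 they were -2.53 and -1.83. Without shControl replicate 2, LOC644961 was no longer called (adjusted p = 0.282).

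Falls that the shControl replicates shared were led by PSG4, a pregnancy-specific glycoprotein, at 13.4 and 8.22 CPM in shControl and 3.34 and 3.54 CPM in shHuR (log2 fold change -1.66, SE 0.21, adjusted p = 0.000576). The PSG genes are near copies of each other, so its own level is uncertain. SLC2A3, the glucose transporter GLUT3 (chr12:7919230-7936275, minus strand), went from 12.4 and 8.87 CPM to 4.05 and 3.94 CPM (log2 fold change -1.42, SE 0.205, adjusted p = 0.00136). DHRS3, a retinaldehyde reductase (chr1:12567910-12617731, minus strand), went from 17.8 and 16.7 CPM to 5.94 and 7.0 CPM (log2 fold change -1.41, SE 0.16, adjusted p = 0.000312). In each of these genes both shHuR libraries lay well below both shControl libraries.

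Of the remaining largest falls, LOC100506714 fell by 1.32 and CALCB, a calcitonin gene-related peptide, fell by 1.18 on the log2 scale, both in the core. ZC3H6, a zinc-finger gene, fell by 1.28, MGST1, a membrane-bound glutathione transferase, fell by 1.21, BHLHE40, a transcriptional repressor of the circadian clock, fell by 1.20, and WNT3, a Wnt ligand, fell by 1.20. These 4 were called by edgeR's quasi-likelihood test with adjusted p from 0.00166 to 0.00826 but not under each alternative. Of the 12 largest falls, 6 were called without shHuR replicate 2.

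**Figure D2:**
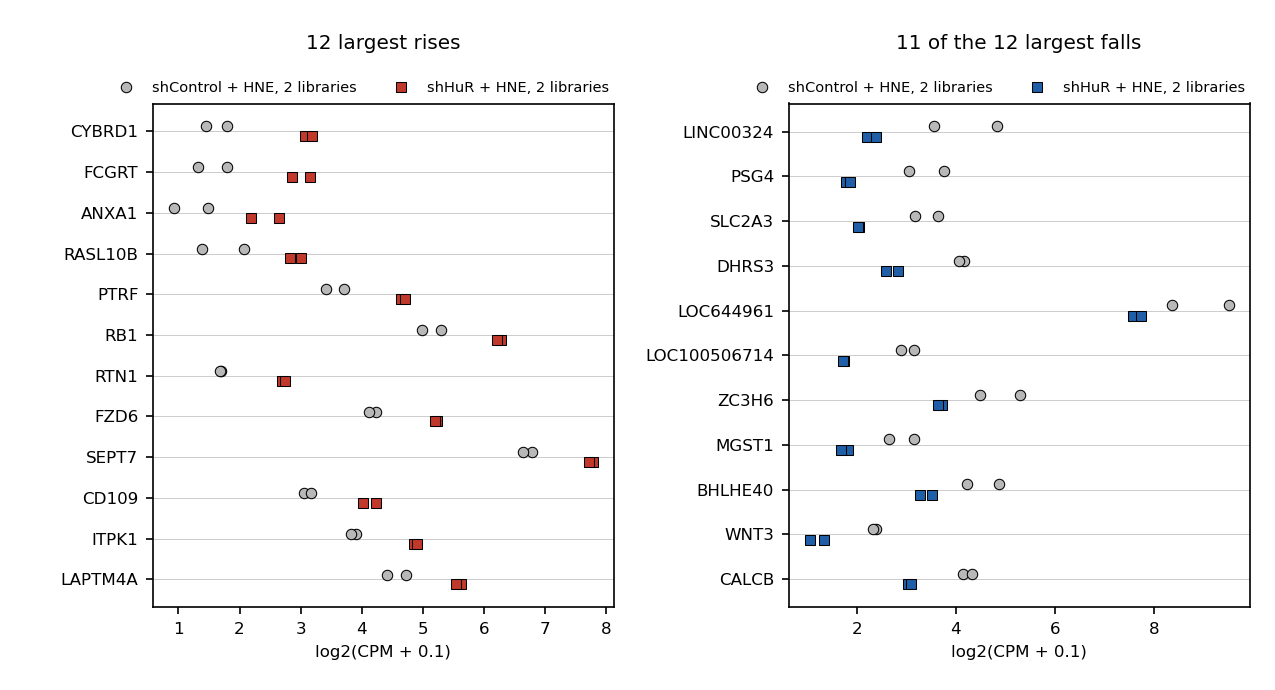
Levels of the 12 largest rises (left) and 11 of the 12 largest falls (right), as log2(CPM + 0.1). They were ranked among called genes other than short noncoding RNAs that reached 5 CPM in the higher line and had whole counts. Grey circles are the 2 shControl libraries and coloured squares the 2 shHuR libraries, all with HNE. The groups do not overlap for any of the 23 genes, which the call and naming rule requires, and LINC00324 and LOC644961 show the widest gaps between shControl replicates.

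Several genes with the smallest adjusted p-values had tight replicates in both lines. CCND1, which encodes cyclin D1 (chr11:69641087-69654474, plus strand), was at 56.8 and 59.3 CPM in shControl and 27.7 and 24.5 CPM in shHuR (log2 fold change -1.15, SE 0.086, adjusted p = 1.40e-05). INSIG1, which retains the SREBP-SCAP complex in the endoplasmic reticulum (chr7:155297776-155310235, plus strand), was at 121 and 115 CPM in shControl and 61 and 61.9 CPM in shHuR (log2 fold change -0.95, SE 0.0711, adjusted p = 1.40e-05). ITGB1, the integrin β1 subunit (chr10:32900319-33005792, minus strand), was at 240.5 and 235 CPM in shControl and 121 and 124 CPM in shHuR (log2 fold change -0.96, SE 0.085, adjusted p = 5.09e-05). In each gene the shHuR pair lay far below a narrow shControl pair.

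Others in this set of 12 were TMED5, a cargo receptor of the early secretory pathway, which went from 103 and 87.6 CPM to 176 and 179 CPM (log2 fold change 0.90), and TMEM167A, a Golgi membrane protein, which went from 129.8 and 117 CPM to 227 and 209 CPM (log2 fold change 0.82). OCRL, an inositol polyphosphate 5-phosphatase, went from 56.4 and 54.3 CPM to 93 and 95.8 CPM (log2 fold change 0.77). These 3 rose in shHuR with no overlap. BTG3, an antiproliferative protein, went from 43.3 and 44 CPM to 23.6 and 23.7 CPM (log2 fold change -0.88), and CYLD, a deubiquitinase that limits NF-κB signalling, went from 55.7 and 57.4 CPM to 33.3 and 32.2 CPM (log2 fold change -0.79). All 12 were called under each alternative.

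Genes of G1 and S phase control moved in both directions. Of 35 tested, 9 fell and 4 rose (37.1% called, against 8.27% of all tested genes), and the median was -0.06. Besides CCND1, the falls included CDK6, a cyclin D partner kinase (from 328 and 267 CPM to 194 and 179.9 CPM, log2 fold change -0.67), and E2F5, an E2F family member (from 30.7 and 31.5 CPM to 18.2 and 14.8 CPM, log2 fold change -0.92). CCND2 fell by 0.50 and E2F2 fell by 0.61 on the log2 scale. The rises were RB1, CDKN1A, CDKN2B and CCND3. CDKN1A, the kinase inhibitor p21, was at 9.04 and 9.81 CPM in shControl and 14.1 and 15.3 CPM in shHuR (log2 fold change 0.64, SE 0.123, adjusted p = 0.00713), and no shHuR library overlapped the shControl range. CCND1, CCND2, CDK6, E2F5 and RB1 were in the core. Of the 13 calls, 5 held without shHuR replicate 2 and 7 without replicate 1. Of 30 mitosis genes 2 rose and none fell (6.67% called), with a median of 0.01, against 5 rose and none fell without shControl replicate 1 and 1 and 0 calls with shHuR replicate 1 or 2 left out, in that order.

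The called genes of glucose use and of the hypoxia pathway were all lower in shHuR with HNE. HIF is a transcription factor whose α subunit is hydroxylated by EGLN enzymes and then degraded through VHL. Of 28 genes of glycolysis and glucose uptake 10 fell and none rose (35.7% called, against 8.27% of all tested genes, and 5.04% of them lower), with a median of -0.23 and 25 of 28 below 0. Of 39 HIF regulators and targets outside glycolysis 15 fell and none rose (38.5% called), with a median of -0.30. The list pools targets with negative regulators, and the falls included EGLN1 and EGLN3, which encode such hydroxylating enzymes. Leaving out either shControl library brought 1 rise into the HIF list, beside 14 falls without replicate 1 and 12 without replicate 2. HIF1A itself was at 84.8 and 70.9 CPM in shControl and 82.7 and 86 CPM in shHuR and was not called (log2 fold change 0.11, SE 0.0928, adjusted p = 0.493).

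PDK1, a kinase that holds pyruvate back from the mitochondrion, was at 156 and 127 CPM in shControl and 85.9 and 83.1 CPM in shHuR (log2 fold change -0.75, SE 0.0901, adjusted p = 0.000395). LDHA, the muscle-type lactate dehydrogenase subunit, was at 1321 and 1243 CPM in shControl and 974 and 997 CPM in shHuR (log2 fold change -0.38, SE 0.0612, adjusted p = 0.00262). SLC2A1, the glucose transporter GLUT1, was at 76.5 and 77.4 CPM in shControl and 61.7 and 55.5 CPM in shHuR (log2 fold change -0.39, SE 0.0735, adjusted p = 0.00611). Both lines were separated in all 3 genes, and with the transporter SLC2A3 they made the 4 lowest p-values of the list. Without shHuR replicate 2, 3 of the 10 calls held, and without shHuR replicate 1, 4.

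Outside glycolysis, PPFIA4, a liprin scaffold protein, went from 27 and 28.1 CPM to 14 and 11.2 CPM (log2 fold change -1.13) and WSB1, a substrate receptor of a ubiquitin ligase, went from 103 and 103 CPM to 74.8 and 74.8 CPM (log2 fold change -0.46). BNIP3, a mitophagy receptor of the mitochondrial outer membrane, was at 146 and 129 CPM in shControl and 86.7 and 80.8 CPM in shHuR (log2 fold change -0.71, SE 0.113, adjusted p = 0.00234). VEGFA, an angiogenic growth factor, was at 81.8 and 81.2 CPM in shControl and 63.1 and 57.8 CPM in shHuR (log2 fold change -0.43, SE 0.0776, adjusted p = 0.00483). The pairs did not overlap in any of the 4. PPFIA4 and WSB1 were in the core, and they were the 2 of these 15 calls that held without shHuR replicate 2, against 6 without shHuR replicate 1.

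The promoter of BNIP3 is printed as an example of a lowered gene with many copies of the core of the hypoxia response element, searched as ACGTG or GCGTG on both strands and shown in capitals, where CACGTG counts on each strand.
BNIP3 promoter: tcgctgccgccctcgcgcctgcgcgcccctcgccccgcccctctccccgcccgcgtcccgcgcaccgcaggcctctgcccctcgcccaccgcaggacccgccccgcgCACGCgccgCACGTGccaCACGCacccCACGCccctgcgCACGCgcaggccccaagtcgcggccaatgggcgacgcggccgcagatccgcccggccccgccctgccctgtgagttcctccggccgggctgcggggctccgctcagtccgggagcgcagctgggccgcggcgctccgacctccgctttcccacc
This RefSeq stretch is chr10:131981874-131982173 (GRCh38.p14, minus strand), from 250 bases before the start site to 50 after it, and holds 6 matches. Over the 26 promoters listed for 21 of the called genes of both lists, some with several starts, the number of matches ran from 0 to 6. No match was found at either EGLN3 or P4HA2 or at the first listed start of PDK1, 9 promoters held 1, among them that of SLC2A1, and the first start of LDHA held 6. At least 1 match was present in 48.4% of the 35116 promoters listed, so a match alone marks no gene, and it is not evidence of a bound site.

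Sterol and fatty acid genes gave 5 falls and 1 rise among 36 tested (16.7% called), with a median of -0.10. INSIG1 and STARD4, a sterol carrier (from 27.3 and 30.5 CPM to 18.3 and 15.6 CPM, log2 fold change -0.77), were the larger falls and were in the core. SQLE, squalene epoxidase, fell by 0.39 and MSMO1, a methylsterol oxidase, fell by 0.44 on the log2 scale. SREBF2, the transcription factor of the pathway, was at 73.8 and 70.8 CPM in shControl and 60.8 and 66.5 CPM in shHuR and was not called (log2 fold change -0.18, adjusted p = 0.348). The sterol list gave 3 and 2 calls with shHuR replicate 1 or 2 left out, in that order.

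Several cytosolic chaperones rose in shHuR with HNE. Of 27 heat-shock targets and chaperones 6 rose and 2 fell (29.6% called), with a median of 0.07. HSPA8, the constitutive HSP70 of the cytosol, was at 1186 and 1381 CPM in shControl and 1911 and 1974 CPM in shHuR (log2 fold change 0.60, SE 0.0694, adjusted p = 0.000325). HSPA1B, an inducible HSP70, was at 247 and 324 CPM in shControl and 471 and 469.9 CPM in shHuR (log2 fold change 0.72, SE 0.0983, adjusted p = 0.000905). DNAJB1, their J-domain cochaperone, was at 52.4 and 61.9 CPM in shControl and 83.5 and 90.1 CPM in shHuR (log2 fold change 0.60, SE 0.0848, adjusted p = 0.00109). All 3 were separated by line and in the core. HSPA1B has a near-identical copy, HSPA1A, between which reads can be split, and HSPA1A was at 0.934 and 0.491 CPM in shControl and 1.34 and 1.06 CPM in shHuR (log2 fold change 0.72, adjusted p = 0.312).

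Smaller rises in the list were those of STIP1 (0.33), DNAJA1 (0.38) and SERPINH1 (0.28), which encode an HSP70-HSP90 adaptor, a J-domain cochaperone and a collagen chaperone. HSF2, a heat-shock factor, fell by 0.28, and so did HSPE1 (-0.34), whose counts were fractional and are uncertain. HSPA8, HSPA1B and DNAJB1 were the 3 calls of the list that held without shHuR replicate 1 or without shHuR replicate 2.

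The HSPA8 promoter is shown because HSPA8 is the most abundant of these chaperones. Capitals mark the heat-shock element core, searched as GAANNTTC or TTCNNGAA, which read the same on both strands.
HSPA8 promoter: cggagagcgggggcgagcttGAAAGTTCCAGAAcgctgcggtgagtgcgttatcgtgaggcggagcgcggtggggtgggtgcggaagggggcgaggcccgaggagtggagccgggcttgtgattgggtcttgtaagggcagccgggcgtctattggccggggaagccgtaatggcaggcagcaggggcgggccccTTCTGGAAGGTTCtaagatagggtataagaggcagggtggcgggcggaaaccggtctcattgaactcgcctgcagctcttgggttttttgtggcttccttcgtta
This RefSeq stretch is chr11:123062087-123062386 (GRCh38.p14, minus strand) and holds 4 overlapping matches in 2 blocks. Of the 13 promoters listed for the 8 called genes of the list, 6 held no match, among them that of HSPE1 and both of HSF2, and the promoter of DNAJA1 held 3. A match was present in 13.5% of all 35116 promoters.

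Of 30 genes for folding and stress in the endoplasmic reticulum 7 rose and none fell (23.3% called), with a median of 0.08. HSPA5, the reticulum's HSP70, was at 187 and 287 CPM in shControl and 344 and 336 CPM in shHuR (log2 fold change 0.52, SE 0.131, adjusted p = 0.0266), with the 2 lines apart. DNAJB11, its cochaperone, rose by 0.35, HYOU1, its nucleotide exchange factor, by 0.30, P4HB, a protein disulfide isomerase, by 0.29, and SEC61B, a subunit of the translocon, by 0.40 on the log2 scale. None of the 7 held without shHuR replicate 1 or without shHuR replicate 2. The medians of both chaperone lists also moved with the shControl library used, from 0.01 without shControl replicate 1 to 0.18 without replicate 2 for heat-shock genes, and from 0.00 to 0.19 for the reticulum list.

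The NRF2 pathway, which HNE is known to induce, was called at about the share of all genes. Of 34 NRF2 targets 2 rose and 1 fell (8.82% called, near the 8.27% of all tested genes), with a median of 0.08. Without shControl replicate 1 the direction turned, as none rose and 3 fell, and without shControl replicate 2, 3 rose and 1 fell. NFE2L2, which encodes NRF2, was at 24.4 and 24.5 CPM in shControl and 23.6 and 26.9 CPM in shHuR (log2 fold change 0.04, adjusted p = 0.838). KEAP1, its inhibitor, was at 65.8 and 76.5 CPM in shControl and 71 and 74.8 CPM in shHuR (log2 fold change 0.04, adjusted p = 0.831). Neither was called, and their SE of 0.102 and 0.0803 set the precision.

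The genes called were EPHX1, a microsomal epoxide hydrolase (from 15.3 and 15.9 CPM to 20.8 and 21.7 CPM, log2 fold change 0.44, adjusted p = 0.0258), CBR1, a carbonyl reductase (from 55.6 and 69.8 CPM to 77.7 and 80.7 CPM, log2 fold change 0.34, adjusted p = 0.0394), and SLC7A11, the cystine transporter (from 140 and 138 CPM to 115 and 109 CPM, log2 fold change -0.31, adjusted p = 0.0173). The first pair rose and the last fell, and none of the 3 held without shHuR replicate 1 or without shHuR replicate 2. NQO1, a quinone reductase, was at 7.54 and 7.77 CPM in shControl and 10 and 11.1 CPM in shHuR (log2 fold change 0.46, adjusted p = 0.0688). SRXN1, sulfiredoxin, was at 41.7 and 45.2 CPM in shControl and 54.6 and 50.8 CPM in shHuR (log2 fold change 0.28, adjusted p = 0.0577). HMOX1, heme oxygenase 1, was at 25 and 30.5 CPM in shControl and 25.7 and 31.7 CPM in shHuR (log2 fold change 0.05, adjusted p = 0.868). The glutathione synthesis genes GCLM (0.18) and GCLC (0.19) and the thioredoxin reductase TXNRD1 (0.09) were not called either. Of 17 regulators of the pathway, BTRC, a ubiquitin ligase subunit, rose by 0.35 and none fell (5.88% called), against 3 rose and 1 fell without shControl replicate 1 and no call without any one of the other 3 libraries.

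Among 35 enzymes that clear aldehydes and quinones 3 fell and 1 rose (11.4% called, against 8.27% of all tested genes), with a median of -0.05. The median was -0.17 without shControl replicate 1 and 0.03 without shControl replicate 2, where 1 rose and 5 fell, and no member was called without either one of the shHuR libraries. MGST1 was at 8.81 and 6.21 CPM in shControl and 3.42 and 3.1 CPM in shHuR (log2 fold change -1.21, SE 0.24, adjusted p = 0.00826), and its shHuR libraries lay clear of shControl. ALDH1A2, a retinaldehyde dehydrogenase, fell by 0.52 and CBR4, a mitochondrial carbonyl reductase subunit, fell by 0.46. Of 42 ATF4 and integrated stress response genes 5 fell and none rose (11.9% called), with a median of -0.10. Without shControl replicate 1, 1 rose and 9 fell, and without shControl replicate 2, 3 rose and 4 fell, with a median of -0.02. There were 2 and 0 calls with shHuR replicate 1 or 2 left out, in that order. ATF4 was at 584 and 624 CPM in shControl and 525 and 533 CPM in shHuR (log2 fold change -0.19, adjusted p = 0.0688), and the falls were VEGFA, DDIT4, CBS, SLC7A11 and NUPR1. The first 2 of them also count in the HIF list.

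Among 30 members of the HuR family and other binders of AU-rich or U-rich mRNA, 4 fell and 2 rose (20% called), with a median of -0.0004. The falls include ELAVL1, the target of the hairpin. ELAVL2, the neuronal relative HuB, was at 46.2 and 36.6 CPM in shControl and 26.6 and 26.9 CPM in shHuR (log2 fold change -0.63, SE 0.115, adjusted p = 0.00524). KHSRP, which promotes decay of AU-rich mRNAs, was at 142 and 113 CPM in shControl and 186 and 201 CPM in shHuR (log2 fold change 0.61, SE 0.12, adjusted p = 0.00826). PCBP1, a poly(C)-binding protein, was at 22.9 and 21.8 CPM in shControl and 30.7 and 34.1 CPM in shHuR (log2 fold change 0.54, SE 0.119, adjusted p = 0.0145). Each was separated by line. HNRNPD, or AUF1, another decay factor, was at 71.2 and 90.1 CPM in shControl and 76.1 and 85 CPM in shHuR and was not called (log2 fold change 0.00, adjusted p = 0.999). Of the 6 calls, 1 held without shHuR replicate 1 and 1 without shHuR replicate 2, and without shControl replicate 1, 5 rose and 4 fell.

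Of 42 mRNAs reported as bound by HuR 6 fell and 1 rose (16.7% called), with a median of 0.02 and 22 of 42 above 0. The list contains ELAVL1 itself. The falls were CCND1, ELAVL1, VEGFA, SLC2A1, VHL and MYC, and the rise was CDKN1A. MYC was at 105 and 80.2 CPM in shControl and 68.2 and 68.4 CPM in shHuR (log2 fold change -0.44, SE 0.115, adjusted p = 0.0308). CCND1 was the one member in the core. Rises were more frequent without a shControl library, as 4 rose and 5 fell without replicate 1 and 3 rose and 5 fell without replicate 2, and 4 and 2 members were called with shHuR replicate 1 or 2 left out, in that order.

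Shares of calls by 3′ UTR sequence are given as a description, and no difference between them was tested. Over 12871 genes with a 3′ UTR of at least 100 bases, 3.57% were higher and 4.92% lower. Among 1515 genes with a match to the guide seed, AGTTTGC, 3.63% were higher and 4.88% lower, near the shares over all these genes, with a median of 0.01. The AU-rich nonamer TTATTTATT was present in 1148 genes, of which 2.96% were higher and 5.31% lower, with a median of -0.01. The AU-rich pentamer ATTTA was present in 9328 genes, of which 4.1% were higher and 4.87% lower, while of the 3543 genes without it 2.2% were higher and 5.05% lower. A run of 7 U was present in 6358 genes, of which 4.28% were higher and 5.13% lower, with a median of 0.02. Genes with these motifs have longer 3′ UTRs (a median of 1679 bases with the pentamer and 417 without), and the share called higher also went with length, from 2.35% under 500 bases to 4.43% at 2000 bases or more. SEPT7, TMED5, TMEM167A and ITGB1 had 1 seed match each, and CCND1, RB1, FZD6 and INSIG1 had none.

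Genes of the cell surface and matrix were called in both directions. Of 29 integrins and laminins 3 fell and 2 rose (17.2% called). ITGB1 was the largest, followed among the falls by LAMA4, a laminin chain (-0.45), while ITGAV (0.28) and ITGAE (0.58), integrin α subunits, rose. Of 43 collagens, matrix proteins and matrix proteases 7 fell and 1 rose (18.6% called), with a median of -0.13. FBN1, fibrillin 1, was at 28.4 and 24.1 CPM in shControl and 46.3 and 45.1 CPM in shHuR (log2 fold change 0.80, SE 0.0888, adjusted p = 0.000302), and AGRN, agrin, at 53.5 and 52.9 CPM in shControl and 32.9 and 30.7 CPM in shHuR (log2 fold change -0.74, SE 0.0981, adjusted p = 0.000741). Fibrillin 1 was higher and agrin lower in both shHuR libraries, and both were in the core. FBN2, fibrillin 2, fell by 0.36 and COL4A6, a basement membrane collagen chain, fell by 0.51. With shHuR replicate 1 or 2 left out, in that order, the integrin and laminin list gave 1 and 1 calls and the matrix list 4 and 2, and without shControl replicate 1 integrins and laminins gave 1 rise and 2 falls.

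Of 25 Notch pathway genes 5 fell and none rose (20% called), with a median of -0.08. They were the ligand JAG2 (-0.56) and the target genes HES4 (-0.62), NRARP (-0.48), HES1 (-0.42) and HEY1 (-0.22). Without shHuR replicate 1 or without replicate 2, 1 of the 5 was called. The Wnt and the TGF-β and BMP lists were called at shares near the 8.27% of all tested genes. Of 36 Wnt pathway genes 2 rose and 2 fell (11.1%), the rises being the receptors FZD6 and FZD2 (0.58) and the falls WNT3 and the coreceptor LRP5 (-0.33). Of 43 genes of the TGF-β and BMP pathway 2 rose and 2 fell (9.3%), among them NOG, the BMP antagonist noggin (from 5.84 and 6.95 CPM to 3.54 and 2.73 CPM, log2 fold change -1.03). With shHuR replicate 1 or 2 left out, in that order, there were 2 and 1 Wnt calls and 1 and 0 calls of the TGF-β and BMP list.

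Homeobox cluster genes, which specify position along the body axis, gave 7 falls and no rise among 35 tested (20% called), with a median of -0.25 and 29 of 35 below 0. HOXC11 was at 15.5 and 16.4 CPM in shControl and 9.04 and 9.44 CPM in shHuR (log2 fold change -0.79, SE 0.119, adjusted p = 0.00172) and was in the core. HOXD9 (-0.62) and HOXD10 (-0.53) followed, and HOXA10 (-1.01) had fractional counts, so its value is uncertain. The list gave 3 and 2 calls with shHuR replicate 1 or 2 left out, in that order and a median of -0.11 without shControl replicate 1. Of 23 neurofilament, neuronal and kidney lineage genes 5 rose and 1 fell (26.1% called). NEFL, the light neurofilament chain, went from 97.1 and 94.7 CPM to 68.8 and 66.3 CPM (log2 fold change -0.51). SYP, a synaptic vesicle protein, rose by 0.52, INA, another neurofilament protein, by 0.73, and NEFM, the medium chain, by 0.98. The light chain thus fell while the medium chain rose, and NEFL was the 1 call of the list that held without shHuR replicate 1 or without replicate 2.

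All called histone genes were higher in shHuR, and all called ribosomal protein genes were lower. Of 49 clustered histone genes 12 rose and none fell (24.5% called), with a median of 0.18. HIST1H3J was at 51.3 and 40.4 CPM in shControl and 75 and 80.8 CPM in shHuR (log2 fold change 0.76, SE 0.104, adjusted p = 0.000905) and HIST1H1D, a linker histone, at 133 and 162 CPM in shControl and 225 and 231 CPM in shHuR (log2 fold change 0.63, SE 0.0864, adjusted p = 0.000954). Both were separated by line and in the core, as was HIST3H2BB (0.46). Without shControl replicate 1, 12 rose and 3 fell, with a median of 0.06, and there were 4 and 3 calls with shHuR replicate 1 or 2 left out, in that order. Most of these mRNAs lack a poly(A) tail and are read here because libraries were made from rRNA-depleted total RNA, and near-identical copies make single members uncertain.

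Of 83 cytosolic ribosomal protein genes 11 fell and none rose (13.2% called), with a median of -0.18 and 69 of 83 below 0. RPL12 was at 705 and 715 CPM in shControl and 547 and 568 CPM in shHuR (log2 fold change -0.35, SE 0.063, adjusted p = 0.00484), and RPL3 at 1399 and 1794 CPM in shControl and 1261 and 1197 CPM in shHuR (log2 fold change -0.38, SE 0.0916, adjusted p = 0.0231). In both the shHuR pair lay below the shControl pair. The count rested on 1 library: 35 fell and 4 rose without shControl replicate 1, and 2 fell and 1 rose without shControl replicate 2, with medians of -0.24 and -0.07. No member was called without either one of the shHuR libraries.

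**Figure D3:**
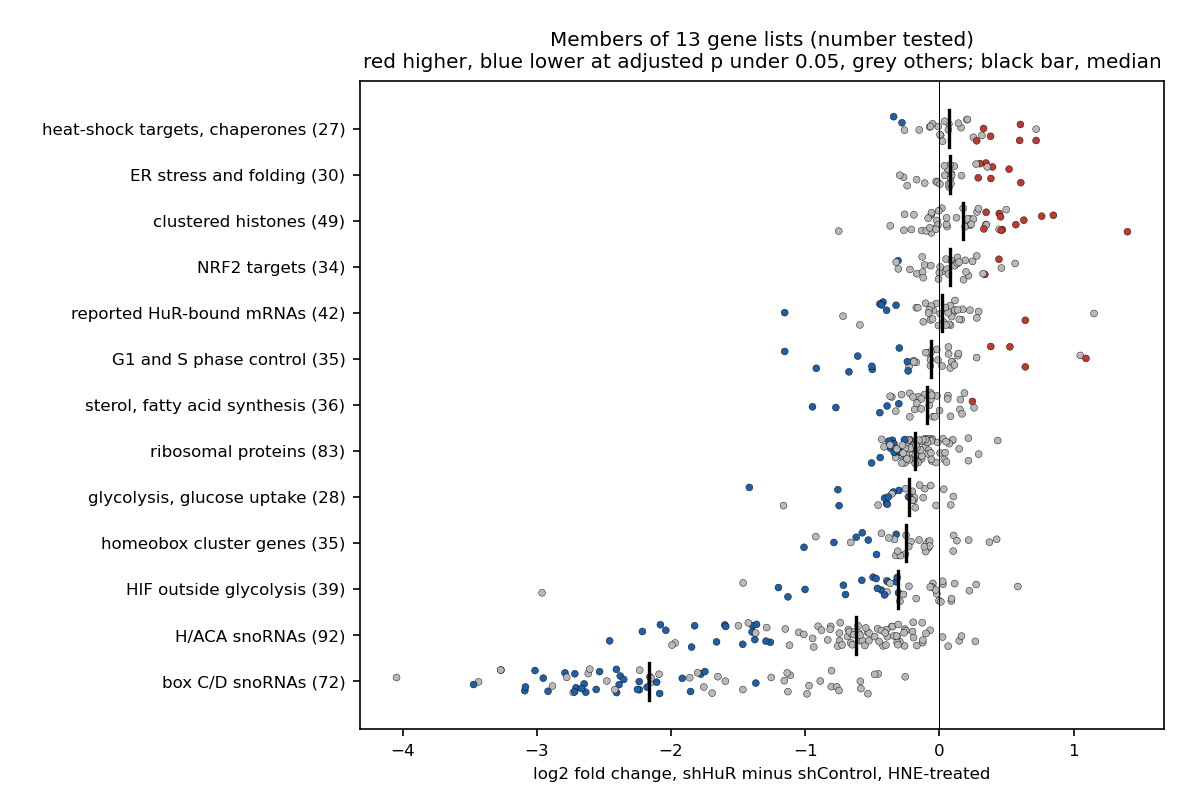
Log2 fold change of shHuR against shControl with HNE for each tested member of 13 gene lists, 1 point per gene, red or blue where called higher or lower, with the list median as a black bar and the number tested in brackets. Medians run from 0.18 for histones to -0.30 for HIF genes outside glycolysis, and lie at -0.62 and -2.17 for the 2 snoRNA classes.

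Of the lists examined, the lowest median was that of the box C/D small nucleolar RNAs (snoRNAs). These RNAs guide the modification of ribosomal RNA and are mostly cut from introns of host genes. Of 72 box C/D snoRNAs 33 were called lower and none higher (45.8% called), with a median of -2.17 and 72 of 72 below 0. The filter on low counts had kept these 72 of 252 box C/D RNAs, and 92 of 105 H/ACA RNAs. A gene can pass that filter through a single group, so RNAs high in shControl could enter however low they were in shHuR. The counts below 0 are therefore not independent of the filter. Of 92 H/ACA snoRNAs 16 were called lower and none higher (17.4% called), with a median of -0.62. All 54 called short noncoding RNAs, of 205 tested, were lower in shHuR.

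The sequences of 4 box C/D snoRNAs that the naming rule picked are shown, from GENCODE transcripts, with the C box core TGATG and the D box CTGA in capitals, the motifs that bind the core proteins of this class.
SNORD24: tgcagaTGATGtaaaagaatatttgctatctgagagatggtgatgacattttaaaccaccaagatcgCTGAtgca
SNORD60: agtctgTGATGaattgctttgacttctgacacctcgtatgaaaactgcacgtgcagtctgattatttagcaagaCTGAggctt
SNORD104: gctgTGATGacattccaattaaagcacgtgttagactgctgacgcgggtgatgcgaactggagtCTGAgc
SNORD32A: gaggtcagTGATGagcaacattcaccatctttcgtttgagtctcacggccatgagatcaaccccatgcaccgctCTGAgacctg
On GRCh38 SNORD24 is at chr9:133349396-133349470, plus strand in RPL7A, SNORD60 at chr16:2155023-2155105, minus strand in SNHG19, SNORD104 at chr17:64146083-64146152, plus strand in SNHG25 and SNORD32A at chr19:49489965-49490048, plus strand in RPL13A.

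SNORD24 was at 3.04 and 9.93 CPM in shControl and 0.826 and 1.13 CPM in shHuR (log2 fold change -2.71, SE 0.524, adjusted p = 0.0073). SNORD60 was at 13 and 28.7 CPM in shControl and 2.87 and 3.79 CPM in shHuR (log2 fold change -2.63, adjusted p = 0.00863). SNORD104 was at 4.7 and 11 CPM in shControl and 1.26 and 1.42 CPM in shHuR (log2 fold change -2.53, adjusted p = 0.00376). In all 3 both shHuR libraries were lowest and shControl replicate 2 was highest, at more than 2-fold its partner. SNORD32A was at 11.9 and 20.2 CPM in shControl and 2.63 and 3.46 CPM in shHuR and the H/ACA RNA SNORA36A at 2.97 and 7.77 CPM in shControl and 1.06 and 0.875 CPM in shHuR, with log2 fold changes of -2.39 and -2.46. In both, shControl replicate 2 was again the highest library and both shHuR libraries were below both shControl libraries.

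These calls rested on which libraries were used. Without shControl replicate 2, the box C/D median was -1.32 with 8 calls and 66 of 72 below 0, and the H/ACA median was -0.21 with 0 calls. Without shControl replicate 1 the medians were -2.68 and -0.97 with 50 and 44 calls. The log2 fold changes without shControl replicate 2 were -1.63 for SNORD24, -1.96 for SNORD60, -1.81 for SNORD104 and -1.62 for SNORA36A, and without shControl replicate 1 they were -3.32, -3.09, -3.01 and -2.99. None of the 5 was called without shHuR replicate 1 or without shHuR replicate 2. Box C/D RNAs took 0.198% and 0.319% of counts in shControl replicates 1 and 2 and 0.155% in each shHuR library. This share weighs abundant RNAs most, while the median counts each tested RNA alike. By share, the class was lower in shHuR by less than its median of -2.17 would give. In untreated and H2O2-treated libraries this share ran from 0.151% to 0.272% in shControl and from 0.131% to 0.189% in shHuR. Those ranges overlapped.

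Host genes did not follow their snoRNAs in size. Of 52 box C/D snoRNAs inside a tested host gene all 52 were below the host, with a median of -2.12 against -0.13 for the 34 hosts, of which 7 were called lower and 1 higher. Of 70 H/ACA snoRNAs 60 were below the host, with a median of -0.67 against -0.02. All of these snoRNAs had passed the filter on low counts, so their counts below the host are not independent of it either. RPL7A, the host of SNORD24, was at 1552 and 2095 CPM in shControl and 1455 and 1454 CPM in shHuR and was not called (log2 fold change -0.33, adjusted p = 0.10). Of 20 host genes with little coding role 4 fell and none rose (20% called), which were GAS5 (-0.39), SNHG16 (-0.38), SNHG10 (-0.38, with fractional counts) and SNHG1 (-0.32). None of these 4 was called without shHuR replicate 1 or without shHuR replicate 2, and without shControl replicate 2, none rose and 2 fell. Among box C/D core and rRNA processing proteins, 26 tested, 2 rose and 1 fell (11.5% called), with a median of 0.03. Their direction depended on the shControl library, as 1 rose and 5 fell without replicate 1 and 5 rose and none fell without replicate 2.

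**Figure D4:**
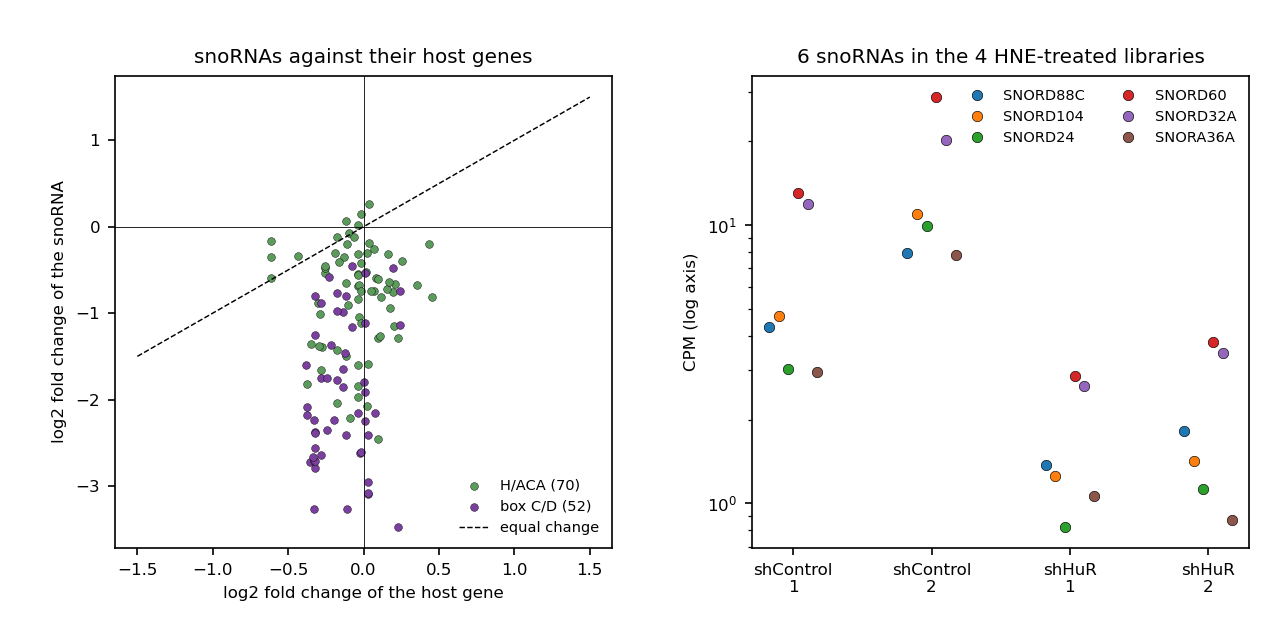
Left, log2 fold change of each snoRNA against that of its host gene, with 52 box C/D and 70 H/ACA RNAs and a dashed line of equal change. Right, CPM on a log axis of 6 snoRNAs in each of the 4 HNE-treated libraries. The box C/D points all lie under the line, and each of the 6 snoRNAs is lower in both shHuR libraries than in either shControl library and highest in shControl replicate 2.

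The line difference with HNE was not told apart from the line difference in the other conditions. An interaction test asked, for each gene, whether the log2 fold change between lines with HNE differed from that in untreated cells, and 0 of 16005 genes (0%) passed at an adjusted p under 0.05 by edgeR's quasi-likelihood test, while 1077 had an unadjusted p under 0.05 and DESeq2 called 5. Against the line difference with H2O2, 0 (0%) passed, 570 had an unadjusted p under 0.05, and DESeq2 called 2. These contrasts carry the error of 8 libraries, so a miss does not show that the differences were alike. Without shControl HNE replicate 1 the first test called 87 genes and the second 3.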

How the data were processed

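RNA was measured by sequencing of rRNA-depleted total RNA in HEK293T shHuR and shControl lines, 2 biological replicates per line and treatment. Per the submitters' processing notes, cutadapt 1.8, Bowtie2 2.2, TopHat2 2.1, Cufflinks 2.2, Cuffnorm and Cuffdiff were used, and the builds named are GRCh37 and hg19. The notes give no role to each tool, and strand use in counting is not given in the sources used here, so reads of overlapping antisense genes cannot be told apart. Estimated counts for each gene symbol were deposited by the authors, beside FPKM, which scales counts to gene length and library size. In 701 of 23615 genes some counts were fractional (2.25% of values), so counts were rounded, and these genes are marked as uncertain where named.

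Genes were kept by edgeR 4.0.16 filterByExpr (R 4.3.3, minimum count 10 by group), leaving 16005. Libraries were scaled with TMM (factors 0.965 to 1.03). The contrast of shHuR with HNE minus shControl with HNE was tested with the quasi-likelihood F-test on 6 group means over 12 libraries (6 residual degrees of freedom, biological coefficient of variation 8.32%), with Benjamini-Hochberg adjustment over all genes and a threshold of 0.05. SE is the fold change divided by the square root of F. Interactions used the same fit. Tests were also run on simulated data, but the outcome is not reported here and nothing is concluded from it. The fit takes the spread of a gene as shared by all groups. The HNE replicate pairs differed in spread. Of 11243 genes with a mean of at least 5 CPM, 350 were 1.5-fold apart within shControl and 14 within shHuR. Alternatives were DESeq2 1.42.0, other scalings and filters, a replicate block, limma 3.58.1 on log2(FPKM + 1) or log2(FPKM + 0.1), and leaving out each library. The reads carry no molecular identifiers, so counting precision is not that of independent molecules.

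Named genes were ELAVL1, and among called genes that reached 5 CPM in the higher line, had no overlap of the lines and had whole counts, the 12 largest rises, 12 largest falls, 5 largest falls and rises of short noncoding RNAs, and the 12 smallest adjusted p-values. Up to 4 called members of each list by smallest adjusted p and a set of defining members were also named. Genes of the interactions, none of which was called, are not named. Other list members are named to account for small counts of calls, after their values were seen. The members and lists were chosen with earlier results of these data known, so lists carry no test. Some genes that the rule picks are not reported here. Positions, transcripts and snoRNA sequences are from GENCODE release 29 (GRCh38), to which 90.9% of tested symbols matched, not from the build the authors used. Promoters are RefSeq stretches on GRCh38.p14.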

Additional observations from a re-analysis of the deposited data

How the results depend on the processing

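The count of 1324 calls was 2061 when genes of low count were kept, 717 with limma on log2(FPKM + 1) for all genes and 204 with the 4 HNE libraries alone, where 2 residual degrees of freedom remain. Leaving out single libraries gave 164 to 1890 calls, lowest without shHuR replicate 2. DESeq2 gave 1546 and the replicate number as a block 1116 (436 higher, 680 lower). Same-numbered libraries did not deviate together between groups (correlations -0.107 to 0.129), so the numbers share a label only. ELAVL1 was at -0.42 with the 4 HNE libraries alone, no longer called, and from -0.4584 to -0.3808 with a library left out. The interaction against untreated cells gave 5 calls by DESeq2, 103 without a filter, 3 by limma on log2(FPKM + 1), 1 on log2(FPKM + 0.1), 2 without a filter, and 0 to 87 with a library left out, highest without shControl HNE replicate 1. Against H2O2 the counts were 2, 94, 2, 1, 2, and 0 to 3. The cause of these shifts was not tested. Genes that were not called could change sign when a library was left out: HIF1A from -0.0081 to 0.2613, HMOX1 from -0.1119 to 0.1983, HNRNPD from -0.1505 to 0.1789, KEAP1 from -0.058 to 0.1478 and NFE2L2 from -0.0541 to 0.1379 on the log2 scale. HNRNPD, near 0 in the reported fit, was also at -0.0012 with a mean CPM of at least 1, -0.0046 when scaled without short noncoding RNAs and -0.0004 on genes with whole counts. Differences of low genes are the least precise, with 1.15% called under 1 CPM.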

Other observations

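Other lists were called at 0% to 29.4%, against 8.27% of all tested genes, except for a list of 3 tested genes. In that list, pregnancy-specific glycoproteins and CEACAM relatives, 2 fell and none rose (66.7% called). Of 30 interferon-stimulated and double-stranded RNA sensing genes 1 rose, EIF2AK2, the RNA-activated kinase PKR (from 68.2 and 62.6 CPM to 82.3 and 80.8 CPM, log2 fold change 0.32), and none fell (3.33% called). Of 41 immediate early genes 3 fell and 1 rose (9.76%), among them the repressor HES1 (-0.42), the pseudokinase TRIB1 (-0.44) and the inhibitor of differentiation ID3 (0.42). Of 17 genes of the RNA interference machinery, only part of which the hairpins use, 3 fell and 2 rose (29.4%). AGO4 (-0.41), DGCR8 (-0.28) and DICER1 (-0.24) fell, and AGO1 (0.34) and TNRC6A (0.34) rose. No member of these 3 lists was called without shHuR replicate 1 or without shHuR replicate 2.

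In transport and adhesion, 4 of 22 ABC transporters fell and none rose (18.2%, with 0 and 0 calls with shHuR replicate 1 or 2 left out, in that order), and of 21 metallothioneins and zinc transporters SLC39A10 fell (from 219.5 and 183 CPM to 128 and 121 CPM, log2 fold change -0.70) and SLC39A6 rose by 0.41 (9.52%). Of 33 iron and heme genes 2 rose, CYBRD1 and PCBP1, and PPOX, protoporphyrinogen oxidase, fell by 0.49 (9.09%). Of 51 axon guidance genes 5 fell and 2 rose (13.7%, with 2 and 1 calls with shHuR replicate 1 or 2 left out, in that order), with the receptor EPHA3 (from 41.5 and 40.9 CPM to 28.5 and 28.9 CPM, log2 fold change -0.52) in the core. No clustered protocadherin was called among 14 tested, of which 10 had fractional counts. Of 35 proteasome subunits 3 rose and none fell (8.57%, near the share of all tested genes), with a median of 0.10 that was 0.04 without shControl replicate 1 and 0.19 without shControl replicate 2, and none was called without either one of the shHuR libraries. Of 82 nuclear subunits of respiratory complexes 3 rose and 2 fell (6.1%). Their direction depended on the shControl library used: 4 rose and 15 fell without replicate 1, with a median of -0.19, and 6 rose and none fell without replicate 2, with a median of 0.07. Of 465 ZNF genes 25 fell and 6 rose (6.67% called), of 279 antisense transcripts 11 fell and 4 rose (5.38%), of 85 LINC genes 6 fell and none rose (7.06%), and of 83 readthrough genes 4 fell and 1 rose (6.02%), all below the 8.27% of all tested genes. Counts were fractional in 80 of the 83 readthrough genes, so the values of that list are uncertain.

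Further genes of the core, chosen after their values were seen, include TXNIP, an α-arrestin that limits glucose uptake, at 8.44 and 8.01 CPM in shControl and 14.7 and 15.4 CPM in shHuR (log2 fold change 0.87), CLTC, the clathrin heavy chain, at 531 and 572 CPM in shControl and 772 and 798 CPM in shHuR (log2 fold change 0.51), and EIF4A2, an RNA helicase of translation initiation, at 268 and 299 CPM in shControl and 194 and 176 CPM in shHuR (log2 fold change -0.61). In each the 2 lines were apart by more than the distance within either pair.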
